A study of Mus musculus with 8 samples.

Results

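SINEs, the short interspersed elements of the mouse genome, were measured as 33 repeat family rows of the deposited count files, out of 1205 repeat family rows and 55292 rows in all. A row belonged to the set when its repeat name began with B1, PB1, B2, B3, B4, ID, RSINE or MIR, so no measured value entered the choice. This gave 10 B1, 5 PB1, 3 B2, 2 B3, 2 B4, 5 ID, 1 RSINE and 5 MIR rows. Whole testis RNA of C57BL/6 males was sequenced for the genotypes Dnmt3A KO/KO (KO) and Dnmt3A WT/WT (WT) at the ages of 19 and 25 days post partum (dpp), with 2 libraries in each of the 4 groups and 8 libraries in all. Dnmt3A is a DNA methyltransferase that places new methyl groups on DNA, and the comparison asks how its mutation changes testis RNA at these ages. The labels do not say how the allele was made, which part of the gene it lacks, or whether the replicates came from separate animals, so p-values measure the spread between these libraries only.

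SINEs are short copies of RNA polymerase III transcripts that were pasted into the genome by the enzymes of LINE-1 elements. B1 and its proto forms, PB1, descend from 7SL RNA, the RNA of the signal recognition particle. B2, B3, ID and MIR carry a tRNA-derived head, and B4 and RSINE1 join ID-like and B1-like sequence. B1 and B2 were active last in mouse, whereas MIR copies spread early in mammalian evolution and are old and decayed. Many copies lie in introns and untranslated regions of genes, so a count in a library of polyadenylated RNA can come from a gene's transcript as well as from a SINE's own promoter, and a row sums the copies of its family.

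A gene that encodes an ID-type RNA shows what the promoter letters of that type look like, and it does not stand for the other name groups. Bc1, the RNA that is the source of rodent ID elements and a translational repressor of neurons, lies at chr7:144914470-144914637 on the plus strand of GRCm38, the assembly also called mm10. GENCODE M21 lists it as a lincRNA of 168 bases, which overlaps no other gene. Its sequence is printed because Bc1 is counted as a gene row of its own, beside the ID rows that descend from it. Reads of Bc1 can also align to ID copies, so its counts are uncertain where the counting could split them. Capitals mark the letters that match the A box, searched as GCNNAGTGG, and the B box, searched as GTTCNNNCC, the internal promoter elements bound by the polymerase III factor TFIIIC.

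Bc1: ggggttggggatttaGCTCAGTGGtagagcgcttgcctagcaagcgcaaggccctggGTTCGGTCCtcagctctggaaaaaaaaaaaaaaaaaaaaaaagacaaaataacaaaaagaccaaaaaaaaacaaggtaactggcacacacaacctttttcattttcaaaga

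The A box match covers bases 16 to 24 and the B box match bases 58 to 66, followed by a run of 23 A. Both strands were searched, and the matches do not overlap. Rn7s1, a 7SL RNA gene searched the same way, held 0 A box matches and 1 B box match, on the minus strand. Of 32851 RefSeq promoter windows trimmed to the same 168 bases on GRCm38, 3.21% held the A box letters, 8.53% the B box letters and 0.298% both. A match is a description of letters, not of a site in use.

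Levels are CPM, the usual scaling of a count to the library total, with the gene row total as that total, so a SINE level is read against all gene RNA of its library. Gene row totals ranged from 22515812 to 50445334 counts per library, and each SINE row held between 1676 and 95603 counts per library, so counting error was at most 2.44% of a value. The WT libraries at 25 dpp had the highest gene row totals, 50445334 and 40972444, and the other libraries reached at most 33864327. The part of depth was not tested. All 33 rows passed the filter on low counts. Cell type markers differed between the groups. In whole tissue, fewer cells of a type and less RNA per cell cannot be told apart. Summed Sertoli cell markers, the somatic nurse cells of the tubule, came to 10278 and 8099 CPM in KO and to 1868 and 2723 CPM in WT at 25 dpp. Pachytene spermatocyte markers came to 610 and 1198 CPM in KO and to 9015 and 7777 CPM in WT at that age. Round spermatid markers came to 50.8 and 83.2 CPM in KO and to 1686 and 1062 CPM in WT, and elongating spermatid markers to 0.827 and 1.59 CPM in KO and to 2498 and 403 CPM in WT. The part of these cell types in the SINE results was not tested. Dnmt3a counts came to 121 and 119 CPM in KO, against 168 and 154 CPM in WT, at the earlier age. At 25 dpp they came to 83.9 and 71.7 CPM in KO, against 35.4 and 58.4 CPM in WT. These whole-gene counts do not check the genotype, since the lacking part is not given.

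At 25 dpp the summed SINE counts, scaled by gene row totals, were higher in KO than in WT. The 33 rows together held 27698 and 28347 CPM in KO, against 17854 and 19889 CPM in WT. At 19 dpp they held 31665 and 28943 CPM in KO, against 31592 and 29277 CPM in WT. The WT libraries at 25 dpp therefore lie below the other 6, which run from 27698 to 31665 CPM, with both KO libraries at 25 dpp below the 4 libraries at 19 dpp. The ratio of the KO mean to the WT mean was 1.48 at 25 dpp and 0.996 at 19 dpp.

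SINE rows made up 47.5% and 50.7% of all repeat counts in KO at 25 dpp, against 41.8% and 44.4% in WT. At 19 dpp the shares were 52.6% and 52.7% in KO, against 54.2% and 51.0% in WT. The groups did not overlap at 25 dpp and overlapped at 19 dpp. The 1172 repeat rows outside the set held 30673 and 27558 CPM in KO and 24886 and 24914 CPM in WT at 25 dpp, a ratio of means of 1.17.

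**Figure D1:**
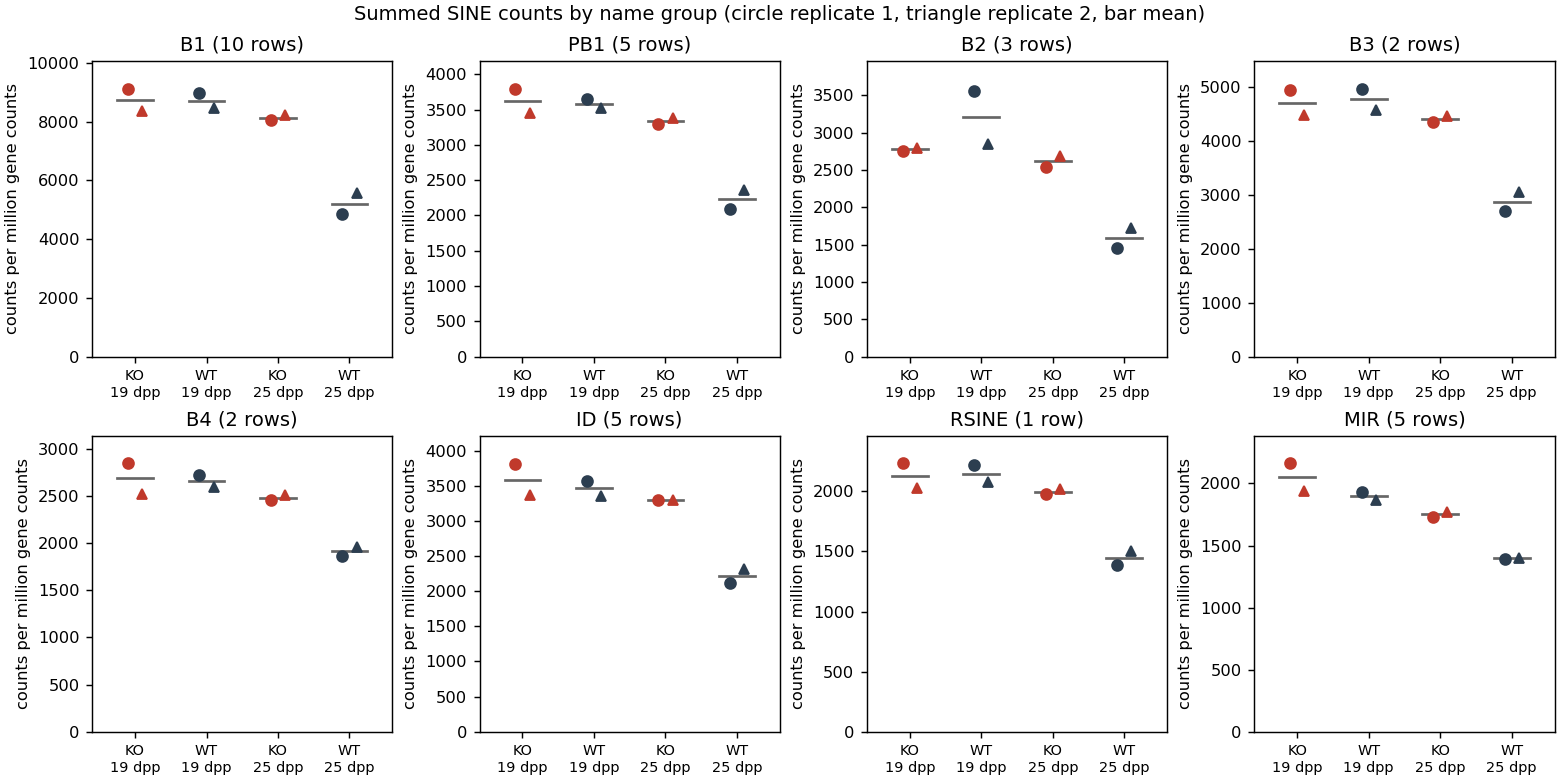
Summed level of each SINE name group in CPM, one panel per group, with 1 point per library and a bar at the mean of the 2 libraries. In each of the 8 panels both WT libraries at 25 dpp lie below every other library on this scale.

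At the level of single rows, 29 of 33 SINE families rose in KO against WT at 25 dpp and 0 fell, in edgeR's quasi-likelihood test with Benjamini-Hochberg adjustment over 24407 gene and repeat rows. Among all rows tested, 37.9% were called higher and 30.1% lower. The median log2 fold change was 0.61 over the 33 SINE rows and 0.31 over all rows. Both KO libraries lay above both WT libraries for all 33 rows, and the share of all rows that separate this way is not given. These directions hold for scaling by gene row totals: with TMM scaling 0 SINE rows were called higher and 1 lower, and with scaling to Sertoli markers 33 were called lower.

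The B1 rows rose together on this scale. B1_Mus1, the most abundant B1 row, had 1705 and 1712 CPM in KO and 997 and 1149 CPM in WT at 25 dpp, a log2 fold change of 0.67 (SE 0.135, adjusted p = 0.00247). B1_Mm, the youngest B1 name in mouse, had 566 and 584 CPM in KO and 322 and 382 CPM in WT, a log2 fold change of 0.71 (SE 0.138, adjusted p = 0.00213). All 10 B1 rows were called, with log2 fold changes between 0.50 for B1F2 and 0.71 for B1_Mus2. The 3 lowest were the B1F rows, the older fossil forms, at 0.50 to 0.56.

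All 5 proto-B1 rows were called as well. PB1D10, the most abundant of them, had 1334 and 1363 CPM in KO and 862 and 957 CPM in WT at 25 dpp, a log2 fold change of 0.57 (SE 0.131, adjusted p = 0.00468). The other PB1 rows ranged from 0.37 for PB1D11 to 0.69 for PB1D9.

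All 3 B2 rows, the tRNA-derived elements that were active last, rose on this scale. B2_Mm1a had 554 and 585 CPM in KO and 282 and 344 CPM in WT at 25 dpp, a log2 fold change of 0.86 (SE 0.206, adjusted p = 0.00557). B2_Mm1t had 513 and 548 CPM in KO and 294 and 342 CPM in WT, a log2 fold change of 0.74 (SE 0.179, adjusted p = 0.00586). B2_Mm2, the most abundant B2 row, had 1470 and 1561 CPM in KO and 884 and 1038 CPM in WT, a log2 fold change of 0.66 (SE 0.141, adjusted p = 0.00330). The fold change of B2_Mm1a was the highest of the 33 rows, but the interval of 1 SE around it overlaps those of other rows, B1_Mm and B1_Mus1 among them.

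B3, an older relative of B2 and the most abundant SINE row of all, had 2823 and 2887 CPM in KO and 1712 and 1942 CPM in WT at 25 dpp, a log2 fold change of 0.64 (SE 0.137, adjusted p = 0.00322). Of the ID rows 4 of 5 were called. ID_B1, a composite of ID and B1 sequence, had 2272 and 2283 CPM in KO and 1494 and 1625 CPM in WT, a log2 fold change of 0.55 (SE 0.133, adjusted p = 0.00609). ID2 missed the threshold at a log2 fold change of 0.28 (adjusted p = 0.0995).

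The B4, RSINE and MIR rows had smaller fold changes. RSINE1 had 1976 and 2018 CPM in KO and 1384 and 1503 CPM in WT at 25 dpp, a log2 fold change of 0.47 (SE 0.131, adjusted p = 0.0117). B4A had 1632 and 1668 CPM in KO and 1187 and 1266 CPM in WT, a log2 fold change of 0.43 (SE 0.132, adjusted p = 0.0180), while B4 missed the threshold at 0.27 (adjusted p = 0.0881). Among the rows named for this contrast, B4A, MIRb and MIRc turned negative with TMM scaling. With DESeq2 size factors RSINE1 and ID_B1 did too. The signs of the other rows under these scalings are not given. MIRb had 577 and 598 CPM in KO and 463 and 459 CPM in WT, a log2 fold change of 0.35 (SE 0.130, adjusted p = 0.0385). Of the 5 MIR rows 3 were called. Leaving out any 1 of the 8 libraries took MIRb out of the calls, at adjusted p-values of 0.0535 to 0.149. Without KO replicate 1 or KO replicate 2 at 25 dpp, RSINE1 had adjusted p-values of 0.0501 and 0.0572 and B4A 0.067 and 0.0792.

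MIRc, one of the old mammalian families, had the lowest fold change of the set. It had 312 and 319 CPM in KO and 308 and 301 CPM in WT at 25 dpp, a log2 fold change of 0.05 (SE 0.127, adjusted p = 0.730). MIR1_Amn also missed the threshold, at 0.32 (adjusted p = 0.0868).

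**Figure D2:**
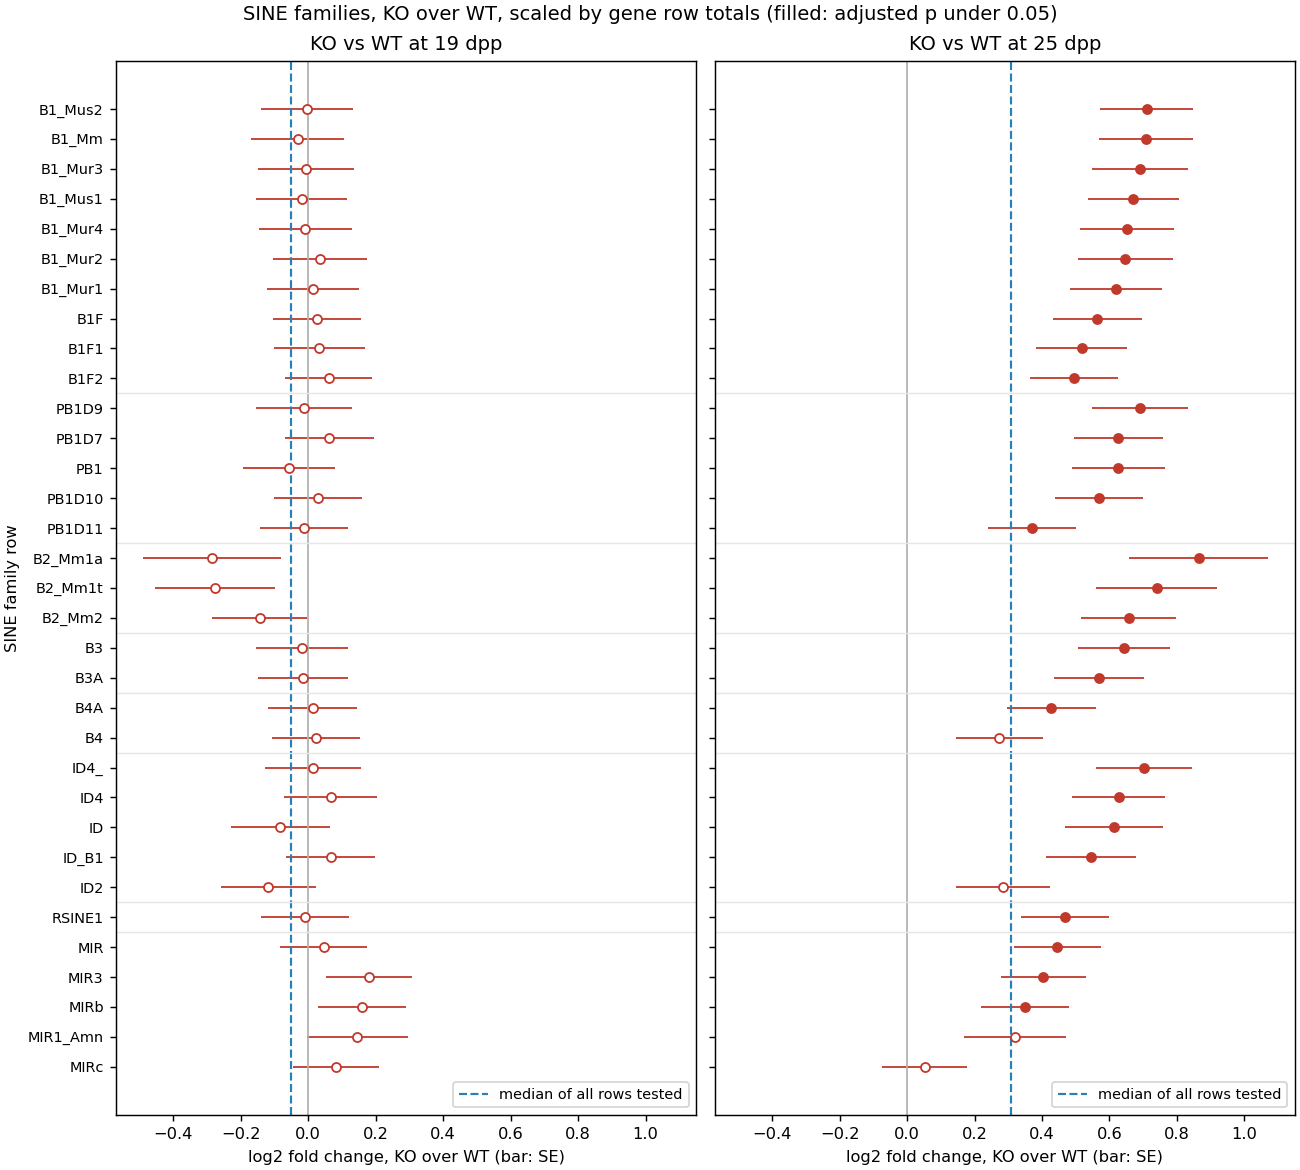
Log2 fold change of KO over WT for each of the 33 SINE rows at 19 dpp (left) and 25 dpp (right), ordered by name group, with the standard error as a bar, filled points for adjusted p under 0.05 and a dashed line at the median of all rows tested. At 25 dpp on gene row totals the B1 and B2 rows lie right of the dashed line. MIRc lies left of it, and B4 and ID2 lie slightly left of it. At 19 dpp no point is filled.

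At 19 dpp 0 of 33 rows were called in either direction by edgeR, 0 by DESeq2 and 0 by limma-voom, and 0 had an unadjusted edgeR p under 0.05. Among all rows 5.33% were called higher and 14.3% lower at this age. The SINE log2 fold changes ran from -0.29 for B2_Mm1a to 0.18 for MIR3, with a median of 0.01. With scaling to Sertoli markers 27 rows were called lower at 19 dpp, beside 41.3% of all rows, and at 25 dpp 33 were called lower, beside 72.9% of all rows.

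The B2_Mm1a value at 19 dpp rests on 1 library. B2_Mm1a had 607 and 692 CPM in KO and 953 and 631 CPM in WT at that age, so 1 WT library stands above the other 3. Its log2 fold change of -0.29 (SE 0.205, adjusted p = 0.368) became 0.04 without WT replicate 1 and -0.55 without WT replicate 2. B2_Mm2 had 1619 and 1532 CPM in KO and 1829 and 1654 CPM in WT at 19 dpp, which do not overlap. Its log2 fold change of -0.14 (SE 0.140, edgeR adjusted p = 0.517) missed the threshold. Relative to B2_Mm2 in the same library, B2_Mm1a counts had a ratio of 0.375 and 0.452 in KO and of 0.521 and 0.381 in WT at 19 dpp. At 25 dpp the ratios were 0.377 and 0.375 in KO and 0.319 and 0.331 in WT. MIR3 had 320 and 297 CPM in KO and 280 and 265 CPM in WT at 19 dpp, which do not overlap, but its log2 fold change of 0.18 (SE 0.126, adjusted p = 0.357) missed the threshold.

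With age, SINE levels fell in WT testes. Between 25 and 19 dpp 32 of 33 rows were called lower in WT and 0 higher, beside 40.8% of all rows called lower and 26.4% higher. The median log2 change was -0.68 over SINE rows and -0.48 over all rows. All 33 rows were lower in both 25 dpp libraries than in both 19 dpp libraries. The share of all rows that separate this way is not given. With TMM scaling, however, 6 SINE rows were called lower and 1 higher. With scaling to Sertoli markers 25 were called higher, and the share of all rows called is not given. B2_Mm1a had the largest change, with 282 and 344 CPM in WT at 25 dpp and 953 and 631 CPM in WT at 19 dpp, a log2 change of -1.34 (SE 0.208, adjusted p = 9.63e-04). MIRc had the smallest, at -0.18 (SE 0.127, adjusted p = 0.224).

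In KO testes 0 of 33 rows were called between 25 and 19 dpp by edgeR, beside 10.3% of all rows called higher and 7.13% lower. At an unadjusted p under 0.05 there was 1 row, and DESeq2 called 1 row lower. The log2 changes ran from -0.30 for MIR3 to 0.03 for ID, with a median of -0.11. The ID row had 106 and 96.9 CPM in KO at 25 dpp and 105 and 93.1 CPM in KO at 19 dpp.

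The KO effect differed between the ages for 17 of 33 rows, all higher at 25 than at 19 dpp, beside 23.1% of all rows called higher and 8.16% lower. The 17 held all 3 B2, both B3, 7 of 10 B1, 3 of 5 PB1 and 2 of 5 ID rows, and no B4, RSINE or MIR row. The median difference was 0.56 on the log2 scale for SINE rows and 0.50 for all rows. B2_Mm1a had the largest difference, 1.15 (SE 0.291, adjusted p = 0.0209), and MIRc the smallest, -0.03 (SE 0.180, adjusted p = 0.956). For B2_Mm1a the adjusted p lay between 0.0561 and 0.0884 without any 1 of 6 libraries, all but WT replicate 2 at either age. The number of families called was 0 with TMM scaling, DESeq2 size factors, other repeat rows or Sertoli markers, so the 17 calls hold for gene row totals. This number also depended on single libraries: it was 0 without any one of the 4 KO libraries or without WT replicate 1 at 19 dpp, 4 without WT replicate 2 at 19 dpp, 6 without WT replicate 1 at 25 dpp and 24 without WT replicate 2 at 25 dpp.

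The scaling between libraries changed the size of the fold changes and the sign of some. For KO over WT at 25 dpp the SINE median was 0.61 with gene row totals and 0.16 with TMM. It was 0.048 with DESeq2 size factors and -1.41 with Sertoli markers. The median of all rows was 0.31 with gene row totals, -0.15 with TMM, -0.26 with DESeq2 size factors and -1.70 with Sertoli markers. The SINE median minus the all-row median was 0.31 with gene row totals. Since a scaling shifts all rows by nearly the same amount, this distance hardly depends on it by construction, and its values of 0.29 to 0.31 over the 7 scalings are no separate support. With TMM 25.7% of all rows were called higher and 37.3% lower at 25 dpp, and 34.6% were higher and 25.1% lower with age in WT. With age in WT the distance was -0.20 with gene row totals.

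**Figure D3:**
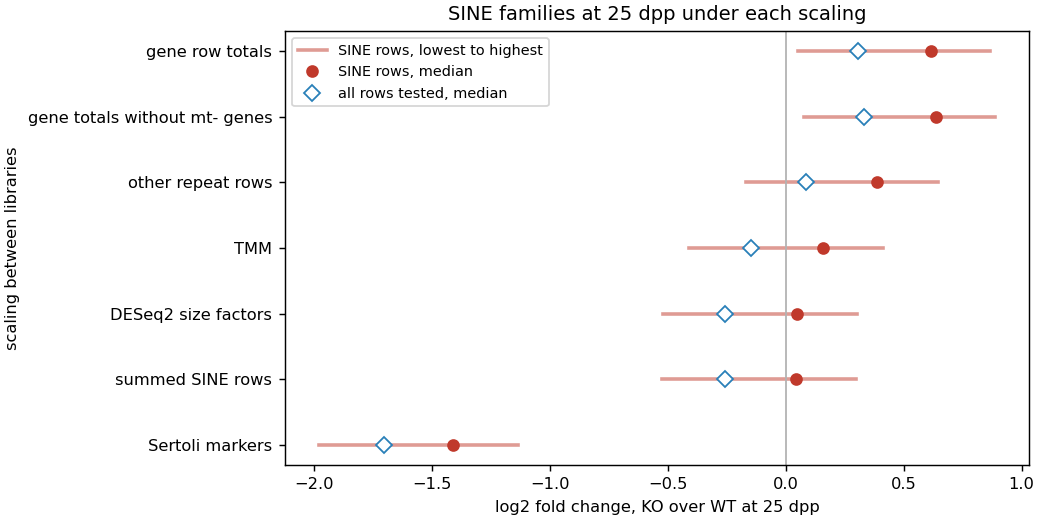
Log2 fold change of KO over WT at 25 dpp under 7 scalings between libraries, with the SINE rows as a line from the lowest to the highest and a point at their median, and an open diamond at the median of all rows tested. Both medians move from positive values with gene row totals to negative ones with Sertoli markers, and the gap between them is nearly fixed because a scaling shifts all rows together.

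LINE-1 rows, the elements whose enzymes copy SINEs, were called in both directions. On gene row totals, of 118 L1 rows tested 16 were called higher and 20 lower in KO against WT at 25 dpp, with a median of -0.02. Among all rows 37.9% were called higher and 30.1% lower on this scale, with a median of 0.31. Over the 1021 other repeat rows tested the median was -0.01, with 164 called higher and 211 lower. The difference between SINE rows and these rows was not tested.

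The mix of families within the SINE counts needs no scaling between libraries. B1 took 29.1% and 29.0% of SINE counts in KO at 25 dpp, against 27.1% and 28.0% in WT. B2 took 9.16% and 9.50% in KO, against 8.18% and 8.67% in WT. B1 and B2 shares were thus higher in both KO libraries than in both WT libraries at this age.

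MIR took 6.26% and 6.23% of SINE counts in KO at 25 dpp, against 7.81% and 7.04% in WT. B4 took 8.85% and 8.86% in KO, against 10.5% and 9.86% in WT. These shares were lower in both KO libraries. Taken as a share of all repeat counts, KO minus WT at 25 dpp was -0.129 percentage points for MIR and -0.0273 for B4, while as a share of SINE counts it was -1.18 for MIR and -1.31 for B4. For B1 it was 2.37 as a share of all repeat counts and 1.48 as a share of SINE counts. At 19 dpp MIR took 6.84% and 6.71% in KO and 6.11% and 6.37% in WT, and B2 took 8.70% and 9.68% in KO and 11.3% and 9.72% in WT, so both groups of families lay on opposite sides at the 2 ages.

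**Figure D4:**
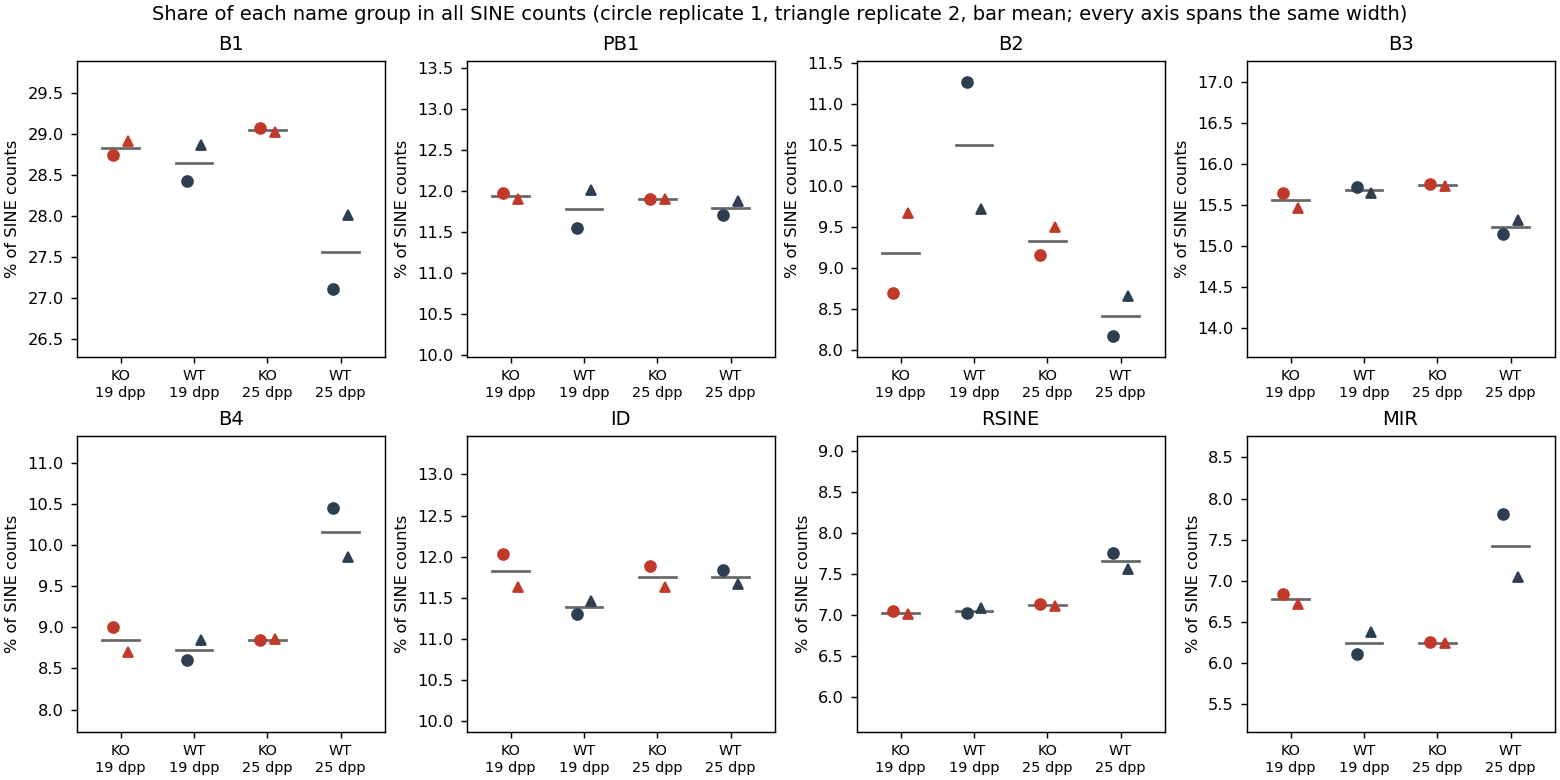
Percentage of all SINE counts taken by each name group, one panel per group, with 1 point per library, a bar at the mean of 2 libraries and axes of equal width that do not start at 0. At 25 dpp both KO libraries lie above both WT libraries for B1, PB1, B2 and B3 and below them for B4, RSINE and MIR. For PB1 the nearest libraries lie at 11.89% in KO and 11.88% in WT.

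Scaled to the summed SINE rows, which sets the total of the set equal between libraries, 0 rows were higher and only MIRc was lower in KO at 25 dpp, at -0.52 (adjusted p = 0.00918), beside 21.6% of all rows called higher and 39.0% lower. With age in WT on that scale MIRc was higher at 0.51 (adjusted p = 0.0121) and B2_Mm1a was lower at -0.64 (adjusted p = 0.0211), beside 37.4% and 17.8% of all rows.

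Bc1, chosen after its values were seen, fell in KO against WT at 19 dpp. It had 12.6 and 16.6 CPM in KO and 55.5 and 32.8 CPM in WT at 19 dpp, a log2 fold change of -1.59 (SE 0.289, adjusted p = 0.00837). At 25 dpp it had 17.6 and 19.9 CPM in KO and 10.5 and 12.8 CPM in WT, a log2 fold change of 0.69 (SE 0.285, adjusted p = 0.0566). With age it fell in WT, by 1.93 on the log2 scale (adjusted p = 8.68e-04), while in KO the change was 0.36 (adjusted p = 0.437). The KO effect differed between the ages by 2.28 (SE 0.405, adjusted p = 0.00797). Without KO replicate 1 at 19 dpp the adjusted p at that age was 0.106, and without WT replicate 1 or WT replicate 2 at 19 dpp the adjusted p at 25 dpp was 0.0332 or 0.0301. With Sertoli marker scaling the sign at 25 dpp turned negative, the change with age in WT was -0.43 (adjusted p = 0.272) and the difference of the KO effects was 1.05 (adjusted p = 0.144). Without a filter on low counts the adjusted p at 25 dpp was 0.0328. Early meiotic markers came to 505 and 922 CPM in KO and to 2568 and 2877 CPM in WT at 19 dpp, and pachytene markers to 106 and 150 CPM in KO and to 935 and 2313 CPM in WT, and their part in the Bc1 values was not tested. As with B2_Mm1a, WT replicate 1 at 19 dpp was the highest library. Rn7s1 and Rn7sk, other polymerase III RNAs, did not fall with Bc1 in KO at 19 dpp. Their log2 fold changes were 0.29 (edgeR adjusted p = 0.730) and 0.27 (adjusted p = 0.655). Neither was called in any contrast, at 18 to 60 counts per library.

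**Figure D5:**
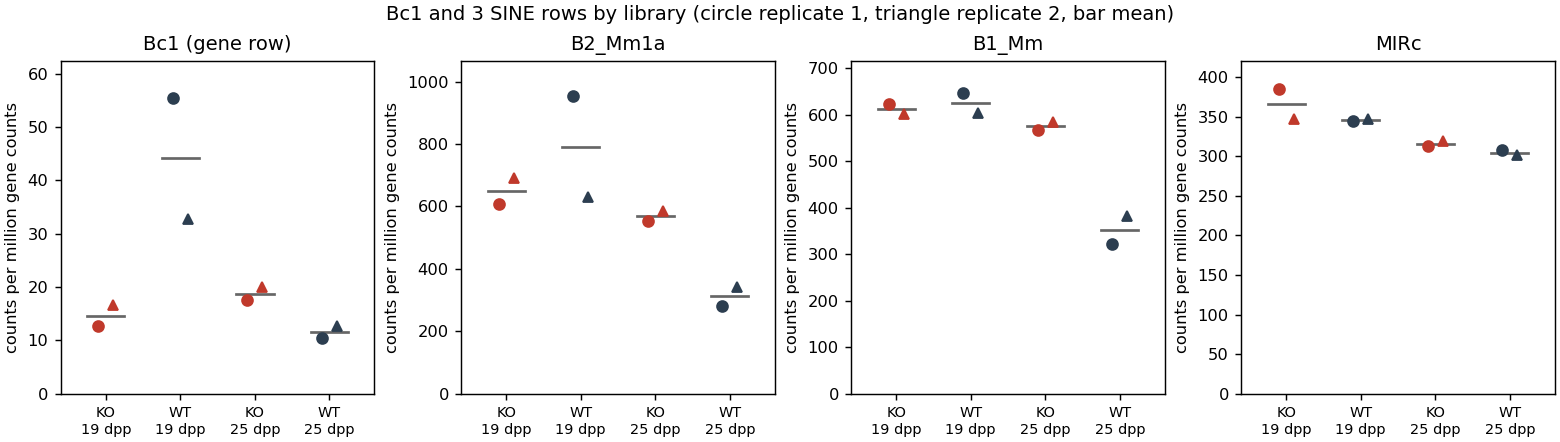
Level in CPM of Bc1 and of the SINE rows B2_Mm1a, B1_Mm and MIRc, with 1 point per library and a bar at the mean of 2 libraries. Bc1 and B2_Mm1a both have their highest value in WT replicate 1 at 19 dpp, at 55.5 and 953 CPM, and MIRc lies between 301 and 385 CPM in all libraries.

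The machinery that transcribes SINEs was given as a list of 35 genes of RNA polymerase III transcription. At 19 dpp 0 rose and 2 fell in KO, beside 5.33% of all rows called higher and 14.3% lower. The early meiotic and pachytene marker sums given with Bc1 were lower in the same KO libraries, and their part was not tested. Tbp, the TATA-binding protein shared by the polymerases, had 39.6 and 40.0 CPM in KO and 86.7 and 86.9 CPM in WT, a log2 fold change of -1.12 (SE 0.144, adjusted p = 0.00342). Polr3c, a polymerase III subunit, was at -0.55 (adjusted p = 0.0444). Gtf3c1, the largest TFIIIC subunit and B box reader, was at -0.09 (adjusted p = 0.786), and Polr1d, shared by polymerases I and III, at -0.12 (adjusted p = 0.689). Without KO replicate 1 at 19 dpp Tbp had an adjusted p of 0.0571, and Polr3c missed the threshold without any 1 of 6 libraries, the 4 of that age and the KO libraries at 25 dpp, at adjusted p-values of 0.0848 to 0.315. With TMM its adjusted p was 0.0555. With Sertoli markers Gtf3c1 and Polr1d were called lower at this age, at -0.91 (adjusted p = 0.038) and -0.94 (adjusted p = 0.0407).

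At 25 dpp 16 of the 35 rose and 7 fell, beside 37.9% of all rows called higher and 30.1% lower. With TMM scaling 11 rose and 10 fell, beside 25.7% and 37.3% of all rows. The median log2 fold change was 0.43 for the list, against 0.31 for all rows. Tbp had 59.5 and 69.3 CPM in KO and 160.0 and 156.7 CPM in WT, a log2 fold change of -1.30 (adjusted p = 2.30e-04). Crcp, another polymerase III subunit, had a log2 fold change of -1.40 (adjusted p = 2.50e-04), Polr1d one of -0.70 (adjusted p = 0.00608) and Gtf3c1 one of -0.03 (adjusted p = 0.893). The value of Gtf3c1 depended on the scaling: it was called lower at -0.48 with TMM (adjusted p = 0.0276), at -0.59 with DESeq2 size factors (adjusted p = 0.00808), at -0.59 with summed SINE rows (adjusted p = 0.0167) and at -2.02 with Sertoli markers (adjusted p = 7.41e-04). Without KO replicate 2 at 25 dpp Polr1d had an adjusted p of 0.0576.

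The second list held 34 genes chosen as partners of SINE RNA or as silencers. It includes Dnmt3a, the mutated gene, whose whole-gene counts do not check the genotype. At 19 dpp 0 rose and 10 fell in KO, beside 5.33% of all rows called higher and 14.3% lower, in the KO libraries with the lower meiotic marker sums. Pabpc1, the poly(A)-binding protein, had 345 and 425 CPM in KO and 935 and 1445 CPM in WT, a log2 fold change of -1.63 (SE 0.221, adjusted p = 0.00374). Mphosph8, a HUSH complex subunit, was at -1.48 (adjusted p = 0.00429) and Trim28, the KAP1 corepressor, at -0.54 (adjusted p = 0.0211). Chd4, a chromatin remodeller of the ChAHP and NuRD complexes, was at 0.07 (adjusted p = 0.782). Without KO replicate 1 at 19 dpp the adjusted p was 0.0607 for Pabpc1 and 0.0658 for Mphosph8, and Trim28 missed the threshold without any 1 of the 4 libraries of that age, at 0.065 to 0.189.

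At 25 dpp 21 of the 34 rose and 5 fell, beside 37.9% of all rows called higher and 30.1% lower. With TMM scaling 9 rose and 9 fell, beside 25.7% and 37.3% of all rows. Suv39h1, an H3K9 methyltransferase, had 99.6 and 102 CPM in KO and 23.8 and 31.1 CPM in WT, a log2 fold change of 1.88 (SE 0.194, adjusted p = 1.96e-04). Chd4 was at 0.41 (adjusted p = 0.0207), and the sign of both was negative with Sertoli marker scaling, that of Chd4 also with TMM. Pabpc1 was at -1.60 (adjusted p = 4.66e-04). Without KO replicate 1, KO replicate 2 or WT replicate 1 at 25 dpp Chd4 had adjusted p-values of 0.0768, 0.0916 and 0.0576.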

How the data were processed

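Per the labels' protocols, whole testis RNA was taken up in Trizol, cleared of DNA with DNase and prepared with the TruSeq Stranded mRNA kit. Reads were aligned to mm10 with STAR 2.7.0a and counted with featureCounts 1.5.1, per the submitters' processing notes. The deposited values are raw counts per gene and repeat family, 1 file per library. The strand setting, the treatment of multi-mapping reads and of reads shared by a gene and a repeat, and the repeat annotation are not given in the sources used here. Each of these could change a SINE count.

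Gene and repeat rows were fitted together in edgeR 4.0.16 (R 4.3.3), with robust quasi-likelihood, gene row totals as library sizes, filterByExpr by group and 4 residual degrees of freedom. The 5 contrasts were adjusted by Benjamini-Hochberg over 24407 rows at 0.05. Standard errors were derived from each fold change and its F statistic. The procedure was tested on simulated data. Alternatives were other scalings, filters of no minimum or 5 CPM in 2 libraries, DESeq2 1.42.0, limma-voom (limma 3.58.1), repeat rows alone, only the libraries compared, a replicate block and leaving out each library. A library left alone in its group is assumed to vary like the others. Replicate numbers in the labels state no shared litter or day, so samples were treated as unpaired.

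Named rows were the most abundant of each name group, B1_Mm and the B2 rows, and the highest and lowest fold change per contrast. Of the 2 gene lists, up to 4 genes per genotype contrast were named, 2 by p and 2 by level, and 1 gene picked by this rule is not reported here. The members, lists and rules were chosen with earlier results of these data known. Bc1 was added after its values were seen. Sequences came from GENCODE M21 and RefSeq tables on GRCm38.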

Additional observations from a re-analysis of the deposited data

Results flagged for a closer look

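On gene row totals the KO effect at 25 dpp minus that at 19 dpp passed the interaction test of edgeR's quasi-likelihood fit for 17 SINE families. Among all rows 23.1% were called higher and 8.16% lower. The median difference was 0.56 over SINE rows and 0.50 over all rows. With TMM, DESeq2 size factors, Sertoli markers, other repeat rows or summed SINE rows, 0 families were called higher. On the log2 scale the difference was 0.69 for B1_Mus1, 0.74 for B1_Mm, 0.80 for B2_Mm2, 1.15 for B2_Mm1a, 1.02 for B2_Mm1t, 0.66 for B3, 0.70 for ID and 2.28 for Bc1. The share of B2 in the SINE counts, KO minus WT, was -1.31 percentage points at 19 dpp and 0.911 at 25 dpp. At 19 dpp it was -0.533 without WT replicate 1, -2.08 without WT replicate 2 and -0.819 without KO replicate 1. The share of MIR was 0.537 percentage points higher in KO at 19 dpp, and its difference was -1.18 at 25 dpp. The libraries of the groups lay on opposite sides at the 2 ages for both shares, and this difference was not tested.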

How the results depend on the processing

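The results depended most on the scaling between libraries, and the cause was not tested. For KO against WT at 25 dpp the SINE families called higher numbered 0 with TMM, 0 with DESeq2 size factors, 0 with Sertoli markers, 10 with the other repeat rows and 0 with the summed SINE rows. Those called lower numbered 1 with TMM, 1 with DESeq2 size factors, 33 with Sertoli markers and 1 with the summed SINE rows. At 19 dpp 27 were lower with Sertoli markers. With age in WT, TMM gave 1 higher and 6 lower, DESeq2 size factors 1 and 2, Sertoli markers 25 and 0, and the summed SINE rows 1 and 1. With age in KO the DESeq2 Wald test gave 1 lower. The difference of the KO effects gave 0 higher with TMM, DESeq2 size factors, Sertoli markers, other repeat rows or summed SINE rows, and 1 lower with DESeq2 size factors. Shares of all rows called are not given for DESeq2 size factors, the other repeat rows or Sertoli markers with age, so those counts have no background beside them.

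With Sertoli markers the log2 fold change of KO over WT at 25 dpp was -1.34 for B1_Mus1, -1.35 for B2_Mm2, -1.37 for B3, -1.59 for B4A, -1.47 for ID_B1, -1.68 for MIRb, -1.45 for PB1D10, -1.55 for RSINE1, -1.30 for B1_Mm, -1.14 for B2_Mm1a, -1.27 for B2_Mm1t, -1.98 for MIRc, -1.30 for Bc1, -0.12 for Suv39h1 and -1.60 for Chd4. At 19 dpp it was -0.63 for MIR3 and -0.74 for Chd4. With age in WT it was 0.15 for B2_Mm1a and 1.30 for MIRc, and the difference of the KO effects was -0.073 for B2_Mm1a. With TMM, KO over WT at 25 dpp was -0.030 for B4A, -0.11 for MIRb, -0.41 for MIRc and -0.042 for Chd4. With DESeq2 size factors it was -0.14 for B4A, -0.022 for ID_B1, -0.22 for MIRb, -0.10 for RSINE1, -0.52 for MIRc and -0.15 for Chd4. With the summed SINE rows, chosen after seeing the data, it was -0.14 for B4A, -0.025 for ID_B1, -0.23 for MIRb, -0.0020 for PB1D10, -0.10 for RSINE1, -0.52 for MIRc and -0.16 for Chd4. With age in WT MIRc was at 0.33 with TMM, 0.48 with DESeq2 size factors and 0.51 with the summed SINE rows. With the other repeat rows, also chosen after seeing the data, MIRc was at -0.17 for KO over WT at 25 dpp and ID at -0.066 with age in KO.

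The log2 ratio of the summed SINE level at 25 dpp was 0.12 with TMM, 0.0034 with DESeq2 size factors, -1.45 with Sertoli markers and 0.35 with the other repeat rows, and at 19 dpp it was -0.81 with Sertoli markers. With age it was 0.16 in KO with Sertoli markers, and in WT -0.18 with TMM, -0.032 with DESeq2 size factors, 0.79 with Sertoli markers and -0.55 with the other repeat rows.

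Leaving out each library in turn gave 22 to 28 families higher in KO at 25 dpp, 26 to 31 lower with age in WT and between 0 and 24 for the difference of the KO effects. It moved B2_Mm1a at 19 dpp between -0.55 and 0.043, ID with age in KO between -0.056 and 0.12, and MIRc in the difference of the KO effects between -0.10 and 0.046. Gtf3c1 ran from -0.23 to 0.072 at 19 dpp and from -0.19 to 0.15 at 25 dpp, and Polr1d from -0.27 to 0.061 at 19 dpp. With the replicate number as a block, 29 families were higher in KO at 25 dpp, 32 lower with age in WT and 13 higher in the difference of the KO effects. The shares of all rows called in the fits without a library and with the block are not given. Correlations of same-numbered deviations between groups ran from -0.13 to 0.50, the highest between WT at 19 dpp and KO at 25 dpp. A factor shared by the same-numbered libraries of those groups was not tested. Samples were treated as unpaired because the labels state no shared litter or day. With 2 libraries per group, the spread rests on 4 residual degrees of freedom.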

Other observations

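Repeat rows whose names mark them as SINEs but do not begin with the chosen prefixes gave 4 more values. MamSINE1 had 19.6 and 18.4 CPM in KO and 13.2 and 12.03 CPM in WT at 25 dpp, a log2 fold change of 0.59 (edgeR adjusted p = 0.0262). LFSINE_Vert had 14.0 and 14.5 CPM in KO and 9.40 and 9.69 CPM in WT, a log2 fold change of 0.57 (edgeR adjusted p = 0.0341). AmnSINE1 and AmnSINE2 missed the threshold at log2 fold changes of 0.24 (adjusted p = 0.302) and 0.51 (adjusted p = 0.101). At 19 dpp 0 of the 4 passed.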
